A study of Mus musculus with 18 samples.

Results

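The 28 genes described here are textbook markers of T cells, natural killer (NK) cells and B cells, taken by symbol from a table of 24431 gene rows measured in mouse skeletal muscle. All 28 were found. They fall by role into the T cell receptor complex (Cd3d, Cd3e, Cd3g, Cd247), the co-receptors (Cd4, Cd8a, Cd8b1), the receptor's kinases (Lck, Zap70), surface costimulation (Cd2, Cd5, Cd28), cytokine receptors (Il7r, Il2rb), cytotoxic granules with the chemokine Ccl5 (Nkg7, Gzma, Gzmb, Prf1, Ccl5), NK receptors (Klrd1, Klrk1, Ncr1) and B cells (Cd79a, Cd79b, Ms4a1, Cd22, Pax5, Blk). The rule names symbols and uses no measured value, but the members were chosen with earlier results of these data known.

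Poly(A) RNA of the rectus femoris, a muscle of the thigh, was sequenced from C57BL/6 mice in 3 arms. The young untreated arm was 8 months old, and the old untreated and old 3TC arms were 19 months old. 3TC (lamivudine), a nucleoside inhibitor of reverse transcriptase, was given at 2 mg/mL in drinking water for 6 weeks. Each arm held 6 libraries, 3 from females and 3 from males, and the series asks how this muscle changes with age and with 3TC in old mice. The labels name each library by arm, sex and number and say no more of its source, so the p-values measure the spread between these libraries. Levels are normalised read counts, in which the authors had scaled each library of 64.2 M to 85.4 M reads to a total of 74.0 M, so that 1 count is close to 1 read.

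T cells recognise antigen through a receptor whose CD3 chains and the zeta chain (Cd247) carry the signal into the cell, where the kinases Lck and Zap70 pass it on. B cells signal through the Cd79a and Cd79b chains, and NK cells and cytotoxic T cells kill through perforin and granzymes. Healthy skeletal muscle holds few lymphocytes, which sit between its fibres and along its vessels. In whole-muscle RNA, more cells of a type and more RNA per cell cannot be told apart.

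The markers were scarce. Of the 28, 22 had a mean of at least 10 normalised counts over the 18 libraries and were tested, and 6 lay below that mean and near the count floor. These 6 were Gzmb (granzyme B, mean 9.38, at 0 in 6 libraries), Cd5 (a receptor that dampens T cell signalling, 9.29, at 0 in 5), Ncr1 (the NK receptor NKp46, 5.69, at 0 in 6), Prf1 (perforin, 5.46, at 0 in 5), Klrd1 (CD94, 5.3, at 0 in 6) and Pax5 (the factor that keeps B cell identity, 4.07, at 0 in 7). Just above the limit stood Blk (10.7, at 0 in 3), Cd3d (11, at 0 in 4), Cd8a (11.9, at 0 in 2), Cd8b1 (14.7, at 0 in 1) and Ms4a1 (14.8, at 0 in 6). The means of Cd247, Cd28 and Cd3e were 230, 223 and 131. Thus the defining markers of NK cells (Ncr1, Klrd1) and a defining marker of B cells (Pax5) were at or near 0 in much of the series, whereas each of the 3 arms held reads of every member.

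Per kilobase of merged exon, the scale on which genes can be compared with each other, Ccl5 had the highest mean level over the 18 libraries (74.3 ± 97.1 SD) and Pax5 the lowest (0.46 ± 0.64). Cd247 (43.1 ± 15.4), Cd2 (38.2 ± 27.2), Cd28 (36.4 ± 22.2), Cd3e (32.1 ± 14.6) and Cd79a (32 ± 24.7) followed Ccl5 and did not differ beyond their spread. For Ccl5 and Pax5 the SD was larger than the mean. The same held for Cd3d, Cd3g, Cd4, Cd5, Cd8a, Cd8b1, Nkg7, Gzmb, Klrd1, Ncr1, Ms4a1, Cd22 and Blk. The plot of all members by library shows these levels and the libraries that stood high.

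**Figure D1:**
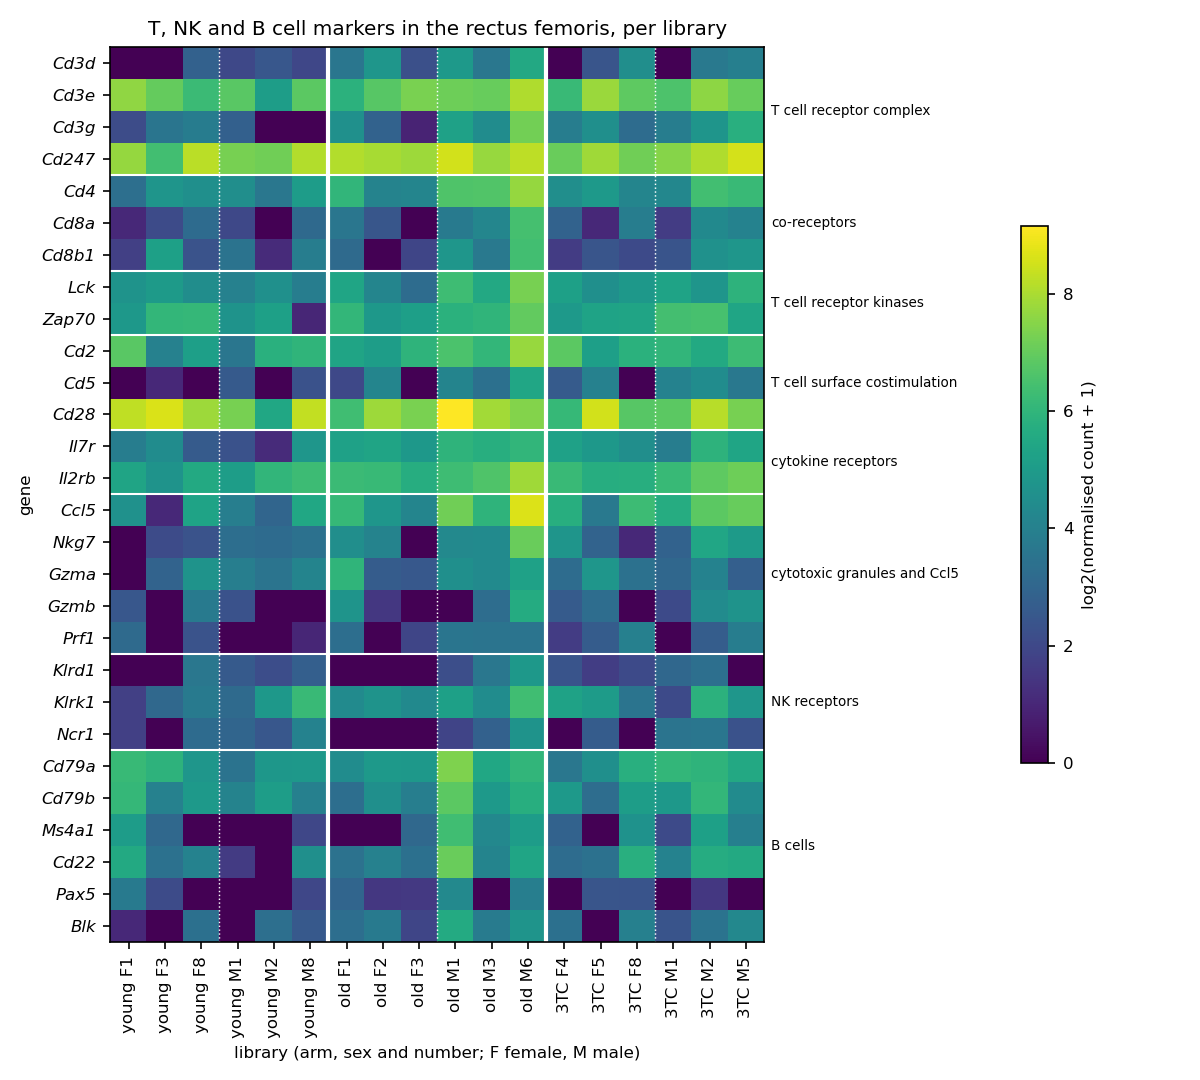
Each row is a member, grouped by role, and each column a library (F female, M male, with its number; "old" is old untreated and "3TC" old 3TC). Colour gives log2 of the normalised count plus 1, from 0 upward; Cd3e, Cd247 and Cd28 are bright in every arm, and the columns of old untreated males 1 and 6 are brighter than their neighbours for many other members.

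Cd3d, Cd3g and Cd3e lie side by side on chromosome 9 (GRCm38; Cd3g 44969572 to 44980431, Cd3d 44981786 to 44987339, Cd3e 44998740 to 45009627). Cd3g and Cd3d point away from each other, with 1355 bases between their starts. The stretches of 250 bases before the RefSeq starts of these 3 genes are shown because Cd3d and Cd3g stood at similar low levels while their neighbour Cd3e did not. The sequences are from RefSeq (GRCm38.p6) and run 5′ to 3′ along the gene's strand. RefSeq and GENCODE, which gives the gene coordinates above, place the start of Cd3e differently, so the last bases of its stretch, with part of its marked letters, lie inside the GENCODE gene. Capitals mark GGAAGT, the core letters of an ETS factor site, or its reverse complement ACTTCC in Cd3d and Cd3e. In Cd3g they mark AGATAA, letters known from sites of the GATA family of factors.
Cd3g, chr9:44980432-44980681 (minus strand): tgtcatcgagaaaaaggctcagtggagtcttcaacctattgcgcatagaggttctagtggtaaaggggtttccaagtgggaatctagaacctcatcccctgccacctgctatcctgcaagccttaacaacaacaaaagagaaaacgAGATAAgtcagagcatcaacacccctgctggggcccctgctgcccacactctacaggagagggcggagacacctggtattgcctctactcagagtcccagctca
Cd3d, chr9:44981536-44981785 (plus strand): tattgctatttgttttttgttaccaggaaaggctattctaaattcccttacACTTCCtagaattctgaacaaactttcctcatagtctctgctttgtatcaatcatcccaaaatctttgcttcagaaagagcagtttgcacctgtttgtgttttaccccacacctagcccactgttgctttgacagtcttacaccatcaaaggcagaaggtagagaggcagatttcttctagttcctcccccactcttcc
Cd3e, chr9:45009612-45009861 (minus strand): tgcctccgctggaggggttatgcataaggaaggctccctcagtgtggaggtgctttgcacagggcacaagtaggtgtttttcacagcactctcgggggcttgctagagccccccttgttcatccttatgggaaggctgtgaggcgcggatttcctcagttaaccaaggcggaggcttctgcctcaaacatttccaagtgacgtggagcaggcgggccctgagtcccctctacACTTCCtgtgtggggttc

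Of the 28 members, 18 had an entry in this promoter set, with 22 start sites in all. GGAAGT was read on both strands in 10 of these 22 stretches and in 19.7% of all 32851, and TGTGGT, the core of a RUNX site, in 9 of 22 and 14%. AGATAA was in 1 of 22 and in 9.99% of all, and the TATA box letters TATAAA in 0 of 22 and 12.4%. TGTGGT does not occur in the 3 stretches printed. None of these motifs contains another, a match is only a match of letters, and no binding was measured.

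With age, every tested marker stood higher on average in old untreated than in young untreated muscle, and none passed the threshold. limma called 0 of the 22 at an adjusted p under 0.05, where 59 of all 16060 genes tested (0.367%) were called. At an unadjusted p under 0.05, 7 of the 22 were higher (Il7r, Il2rb, Cd4, Ccl5, Cd3d, Blk and Cd3g) and 0 lower, against 20.8% and 1.22% of all genes. By edgeR 0 of the 22 and by DESeq2 1 (Il7r, adjusted p = 0.0469) passed. Before adjustment, 12.6% of the tested genes by edgeR and 14.3% by DESeq2 fell below 0.05, in either direction. The log2 change was above 0 for 22 of 22 members against 79.1% of all genes, and at least 1 for 13 of 22 against 4.67%. Cd3d, Cd8a and Blk passed the limit of 10 only through the old untreated arm (means 21.3, 22.1 and 18.4). They averaged 2.79, 3.92 and 4.09 in the young arm and 8.87, 9.7 and 9.52 in the old 3TC arm. For them the filter favoured a rise with age, so these counts are partly set by it. The median log2 change was 1.14 over the members and 0.16 over all genes. Changes are on the scale of log2 of the normalised count plus 1, which can understate those of genes near 0. Under median-of-ratios scaling the median of all genes moved from 0.16 to 0 and that of the members to 0.98, and the costimulatory receptor Cd28 turned to −0.13. Cd28 turned below 0 also by edgeR (−0.16) and DESeq2 (−0.17), as did Cd8b1 (−0.16 and −0.27).

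Il7r, the receptor for interleukin 7 that keeps naive and memory T cells alive, was the member whose arms separated. Its normalised count was 13.8, 20.7 and 5.2 in young females and 4.0, 1.2 and 27.4 in young males. In old untreated muscle it was 37.0, 39.8 and 28.9 in females and 61.9, 52.9 and 64.8 in males. All 6 old libraries lay above all 6 young ones, which was so for 1 of the 22 members and 0.996% of all genes. The difference was 5.07-fold (log2 2.34 ± 0.55 SE, adjusted p = 0.0564, limma) and smaller by edgeR and DESeq2 on the recovered reads, with a log2 change of 1.78 by both, and over the alternatives the adjusted p of Il7r ran from 0.0148 to 0.212. Without young untreated male 8, the highest young library, it was 0.0148, without young untreated female 8 it was 0.0466, and without old untreated female 3 it was 0.047. Each of these omissions also raised the share of tested genes below 0.05 before adjustment, to 25.1%, 25.1% and 25% in either direction.

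Il2rb, the receptor chain for interleukins 2 and 15 on cytotoxic T and NK cells, ranged from 25.1 through a median of 43.3 to 76.2 in young and from 51.3 through 76.6 to 228 in old untreated libraries. The groups overlapped, and the highest value was that of old untreated male 6. The log2 change was 0.98 ± 0.29 (SE, adjusted p = 0.0828, limma).

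Within the T cell receptor complex, Cd3d and Cd3g, the delta and gamma chains, had larger log2 changes than Cd3e and Cd247, the epsilon and zeta chains; the difference between chains was not tested. Cd3d counts were 0, 0 and 6.2 in young females, 3.0, 4.6 and 2.9 in young males, 11.0, 27.1 and 3.7 in old untreated females and 30.0, 11.3 and 44.8 in old untreated males. A single old library, female 3, lay within the young range, and the log2 change was 2.57 ± 0.89 (SE, adjusted p = 0.117, limma). For Cd3g the young libraries held from 0 through a median of 4.74 to 13.4 counts and the old untreated ones from 0.93 through 21.9 to 149, the highest again in male 6 (log2 change 2.16 ± 0.92 SE, adjusted p = 0.186). Both genes are so low that these changes rest on few reads: the 6 young libraries held 16 reads of Cd3d in all and the 6 old untreated ones 138.

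Cd3e ranged from 33.4 through a median of 112 to 201 counts in young and from 58.1 through 135 to 269 in old untreated libraries, and its groups overlapped across most of their range (log2 change 0.43 ± 0.40 SE, adjusted p = 0.525, limma). Cd247 ranged from 81.9 through 182 to 295 in young and from 212 through 262 to 371 in old (0.59 ± 0.28 SE, adjusted p = 0.23). On the scale per kilobase, Cd3e stood above both Cd3d and Cd3g in 18 of 18 libraries. In young muscle the levels per kilobase were 27 ± 13.7 for Cd3e, 1.54 ± 1.36 for Cd3d and 1.72 ± 1.71 for Cd3g (SD, n = 6). In old untreated muscle they were 35.4 ± 17.2, 11.8 ± 8.46 and 12.1 ± 16.8. In T cells the 3 chains are parts of one receptor.

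**Figure D2:**
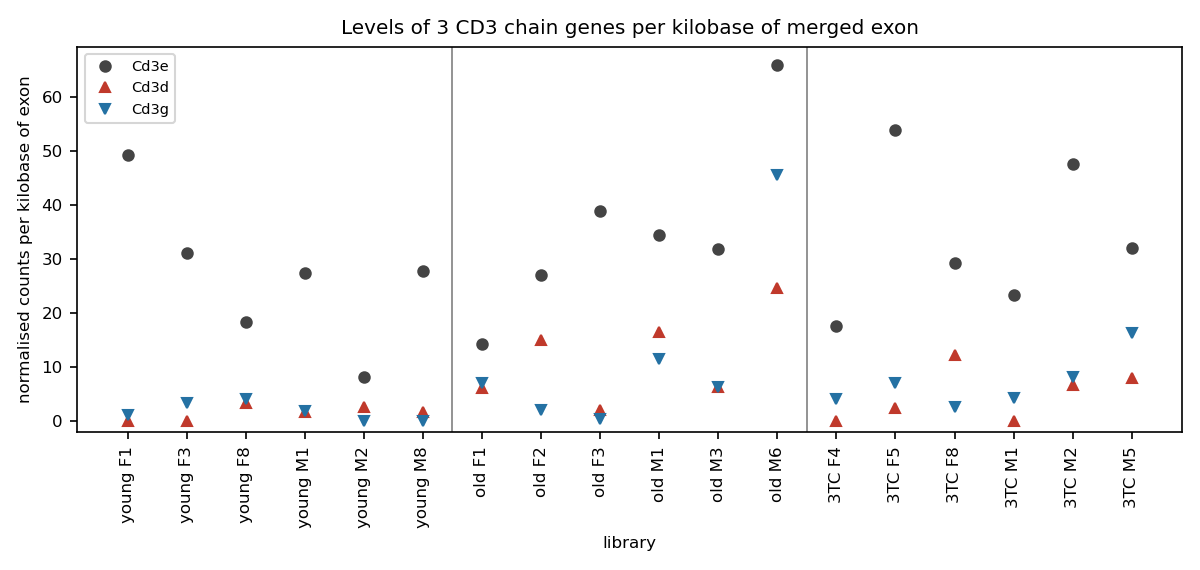
Normalised counts per kilobase of merged exon (vertical axis, linear) of Cd3e, Cd3d and Cd3g in each of the 18 libraries (horizontal axis; grey lines part the arms, "old" is old untreated and "3TC" old 3TC). The Cd3e points lie above those of Cd3d and Cd3g in 18 of 18 libraries, and old untreated male 6 is the highest library for each of the 3 genes.

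Some of these levels may hold reads of other genes. Of the exonic bases of Cd247, 3007 are shared with Pou2f1, a widely expressed gene on the opposite strand, which had 561 ± 99 counts in the young, 613 ± 75.3 in the old untreated and 508 ± 121 in the old 3TC arm (SD, n = 6). Cd3e shares 135 bases with the antisense gene Gm48719 and Cd22 shares 479 with Gm29439. Whether the counting used strand is not given in the sources used here, so the values of Cd247, Cd3e, Cd22 and Pax5, which overlaps antisense genes too, are uncertain.

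Among the co-receptors, Cd4, which marks helper T cells and is also made by some macrophages, was 9.2, 26.2 and 22.7 in young females and 22.1, 11.5 and 32.3 in young males. In old untreated muscle it was 65.1, 16.3 and 16.8 in females and 98.3, 102 and 207 in males. Old females 2 and 3 lay within the young range and the other 4 old libraries above it (log2 change 1.57 ± 0.51 SE, adjusted p = 0.0998, limma). Cd8a and Cd8b1, the alpha and beta chains of the co-receptor of cytotoxic T cells, stood at 3.92 ± 3.42 and 11.2 ± 13.1 in young and at 22.1 ± 32.3 and 22 ± 30.9 in old untreated libraries (SD, n = 6). Old untreated male 6 alone held 86.8 and 82.0 counts of them, against at most 19.3 and 36.0 in any other library, and their arms overlapped (log2 changes 1.49 ± 0.91 and 0.38 ± 0.88 SE, adjusted p = 0.329 and 0.816).

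Lck and Zap70, the kinases that start the receptor's signal, were 21.6 ± 6.34 and 37.4 ± 25.7 in young and 57.6 ± 53.6 and 62 ± 33 in old untreated libraries (SD, n = 6). Their log2 changes were 0.88 ± 0.49 and 1.17 ± 0.67 (SE, adjusted p = 0.288 and 0.303, limma). Cd2, an adhesion receptor of T and NK cells, was 48.8 ± 37.5 and 85.3 ± 67.8 (log2 change 0.90 ± 0.52 SE). Cd28, the main costimulatory receptor, was level, at 242 ± 129 and 242 ± 171 (0.04 ± 0.54 SE, adjusted p = 0.971), and its highest library was old untreated male 1 at 572. Like Cd3e it stood high in young muscle, where Cd3d, Cd3g and Cd8a were near 0.

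Ccl5, a chemokine that effector T and NK cells store and secrete, ranged from 1.1 through a median of 19.1 to 43.0 in young libraries and from 16.8 through 64.9 to 405 in old untreated ones. The difference was 4.74-fold (log2 2.25 ± 0.72 SE, adjusted p = 0.1, limma), and old untreated male 6 held the highest count, followed by old untreated male 1 at 143. Nkg7, a protein of cytotoxic granules, was at most 9.8 in young libraries and 22, 16.3, 0, 19.1, 19.9 and 134 in old untreated females 1, 2 and 3 and males 1, 3 and 6 (log2 change 1.67 ± 0.84 SE, adjusted p = 0.248). Gzma, granzyme A, was 12.1 ± 8.55 in young and 25.3 ± 21.7 in old untreated libraries (SD, n = 6; log2 change 1.03 ± 0.75 SE). Klrk1, the activating receptor NKG2D, was 22.1 ± 26.7 and 33.7 ± 23.6 (1.10 ± 0.69 SE), with young untreated male 8 at 73.3 close to old untreated male 6 at 80.1.

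The members near the floor were given no test. The old untreated libraries held 95 reads of Cd5 in all against 10 in the young ones, 89 against 20 of Gzmb, 47 against 12 of Prf1, 47 against 25 of Klrd1, 36 against 37 of Ncr1 and 47 against 17 of Pax5. Old untreated male 6 was the highest library for Cd5 (42.0), Gzmb (48.6), Klrd1 (28.6) and Ncr1 (24.8), and old untreated male 1 for Pax5 (19.1). Klrd1 and Ncr1 were at 0 in all 3 old untreated females.

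The B cell members had wide spreads in each arm. Cd79a and Cd79b, the signalling chains of the B cell receptor, were 37.2 ± 23 and 29.5 ± 20.4 in young and 59.4 ± 55.6 and 40.2 ± 39.1 in old untreated libraries (SD, n = 6; log2 changes 0.53 ± 0.54 and 0.18 ± 0.55 SE). Ms4a1 (CD20) was at 0 in 3 young and in 2 old untreated libraries and reached 32.1 in young female 1 and 81.0 in old untreated male 1 (1.44 ± 1.22 SE). Cd22, an inhibitory receptor of B cells, was 134 in old untreated male 1 and at most 45.9 in young libraries (1.38 ± 0.88 SE). Blk, a B cell kinase, was at most 9.3 in young libraries and 9.0, 12.7, 2.8, 47.3, 13.0 and 25.7 in old untreated females 1, 2 and 3 and males 1, 3 and 6 (2.13 ± 0.83 SE, adjusted p = 0.153, limma).

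The age difference of these markers was uneven between the sexes. In males the log2 change was above 0 for 22 of 22 members and 72.7% of all genes, with medians of 2.19 and 0.15. In females it was above 0 for 11 of 22 members and 75.3% of all genes, with medians of 0.01 and 0.19. Without the filter on low values, the medians over all 28 members and over all genes were 2.17 and 0.12 in males. In females they were then −0.04 and 0.15. At an unadjusted p under 0.05, 14 of 22 members were higher in old males and 0 in old females, where 9.7% and 16.5% of all genes passed that level in either direction; 0 members passed the adjusted threshold in either sex, where 2 of all genes (0.0125%) passed in males and 0 in females. The difference between the sexes was tested itself, as the male minus the female change. It was above 0 for 19 of 22 members and 45.4% of all genes. It had an unadjusted p under 0.05 for 10 of 22 members, all with the larger change in males, and for 4.88% of all genes, and it passed the adjusted threshold for 0 members and 0 genes (lowest adjusted p of the members 0.919, limma). The 10 were Cd3g, Lck, Cd79a, Ms4a1, Cd22, Cd79b, Zap70, Cd28, Cd4 and Cd8b1. Cd3d, Cd8a, Cd8b1, Ms4a1 and Blk stood just above the limit of 10, with their highest counts in old untreated males 1 or 6. For them the filter favoured a rise in males, so these counts of members are partly set by it. Without the filter, an unadjusted p under 0.05 was reached by 15 of 28 members in males, against 8.48% of all genes. In females it was then reached by 1 of 28 (16%), and for the difference between the sexes by 10 of 28 (6.3%). Without single libraries the count of 14 in males ran from 9, without old untreated male 6, to 16, and that in females from 0 to 3, the latter without young untreated female 8. The arms are small, and these sex-specific results were chosen for alternatives after the data were seen.

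Lck shows the pattern. Its counts were 25.2, 30.6 and 21.7 in young females and 41.0, 17.2 and 8.4 in old untreated females, and 15.1, 23.1 and 13.7 in young males and 79.2, 45.1 and 154 in old untreated males. The female groups overlapped and the male groups did not, with log2 changes of −0.46 ± 0.55 in females and 2.22 ± 0.55 in males (SE; difference 2.68 ± 0.78, unadjusted p = 0.00346, adjusted p = 0.919, limma). Cd3g was 3.4, 10.9 and 13.4 in young and 23.0, 6.3 and 0.9 in old untreated females, and 6.0, 0 and 0 in young and 37.3, 20.8 and 149 in old untreated males (difference 5.09 ± 1.47 SE, unadjusted p = 0.00313). Cd79a, on the B cell side, was 71.1, 59.0 and 26.9 in young and 21.0, 29.8 and 28.9 in old untreated females, and 10.1, 27.7 and 28.3 in young and 168, 43.3 and 64.8 in old untreated males (difference 2.77 ± 0.86 SE, unadjusted p = 0.00519). All 3 old females thus stood below 2 of the 3 young females for Cd79a, and all 3 old males above all 3 young males. Those 2 young females, 1 and 3, had the highest transposable-element shares of counts of all libraries (5.92% and 12.04%).

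All 3 old untreated males lay above all 3 young males for 16 of the 22 tested members, against 16.3% of all genes, and for 18 of the 28 in all. Those outside the 18 were Cd247, Cd8b1, Cd28, Gzmb, Klrd1, Klrk1, Ncr1, Cd79b, Cd22 and Pax5. In females the same held for 3 of 22 (Il7r, Il2rb and Klrk1), against 15.2% of all genes. Cd3d had similar log2 changes in both sexes, 2.60 ± 1.30 in females and 2.54 ± 1.30 in males (SE), with a difference of −0.06 ± 1.84.

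**Figure D3:**
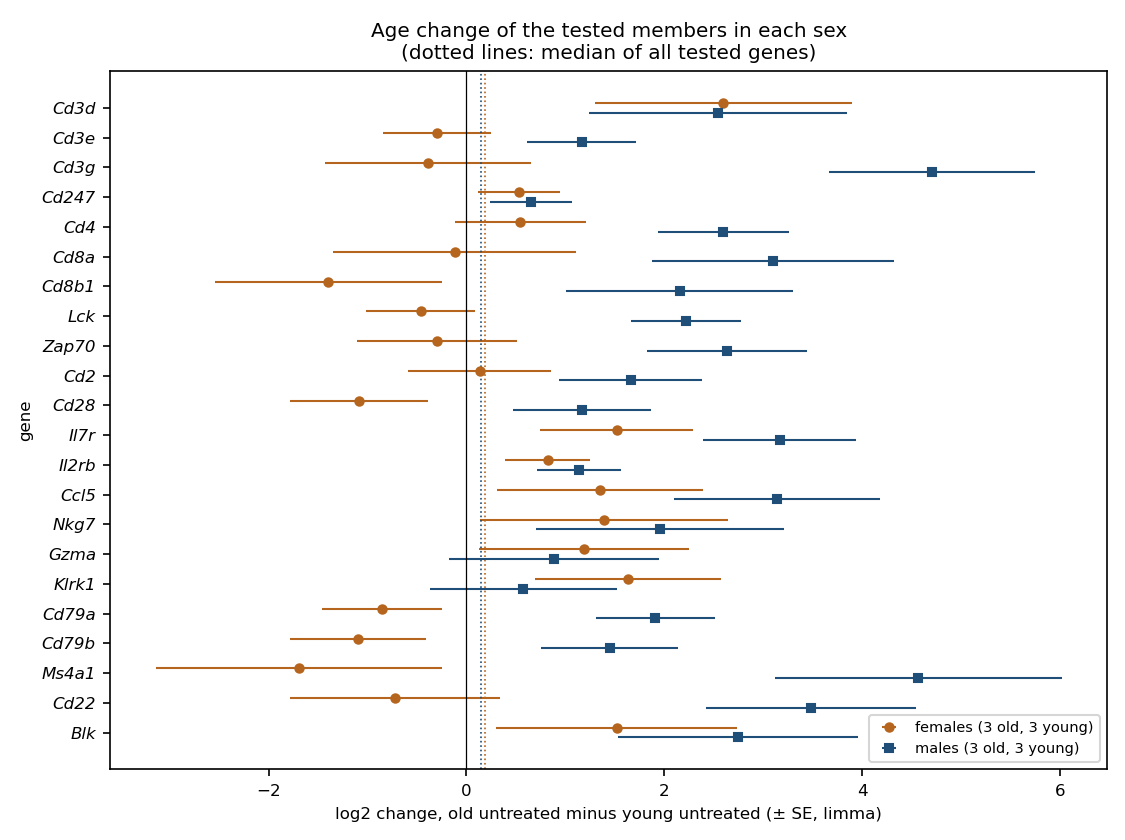
Log2 change of each of the 22 tested members between old untreated and young untreated muscle (horizontal axis), in females (circles) and males (squares) with 3 libraries per arm and sex, with bars of 1 SE from limma. Squares lie above 0 for 22 of 22 members and circles for 11 of 22; dotted lines give the median of all tested genes in each sex, 0.19 in females and 0.15 in males.

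A pair of libraries stood highest. Old untreated male 6 was the highest of the 18 libraries for 18 of the 22 T and NK members, and old untreated male 1 for all 6 B cell members and for Cd28. The other 3 maxima were old untreated female 1 for Gzma, old 3TC female 8 for Prf1 and old 3TC male 5 for Cd247. The summed count of the 19 T and NK members other than Cd3e, Cd247 and Cd28 was 2166 in old untreated male 6, 833 in male 1 and 657 in male 3, and 588, 337 and 254 in old untreated females 1, 2 and 3, against 199 to 408 in young libraries. Those left out had the highest mean counts of the members, and log2 changes with age of 0.43, 0.59 and 0.04. Over all 28 members the sums overlapped, from 549 to 1229 in young and from 859.5 to 3150 in old untreated libraries. The summed count of the B cell members was 564 in old untreated male 1, 231 in male 6 and 120.5 in male 3, and 56.1 to 82.2 in old untreated females, against 28.1 to 230.5 in young libraries, where female 1 was highest. Leaving out old untreated males 1 and 6 was chosen after the data were seen and for their high values, and it leaves male 3 as the lone old untreated male, assumed to vary like the other groups. The median log2 change with age was then 0.79 over both sexes and 1.22 in males. An unadjusted p under 0.05 was reached by 2 of 22 members for age, against 17.7% of all genes, and by 0 of 22 for the difference between the sexes, against 1.96%, down from 4.88%.

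Markers of other cells differed between libraries too. The 14 macrophage markers were highest in the same old untreated male 6, with a summed count of 47913, and their sum was 13330 ± 8906 for the young arm, 26020 ± 11790 for the old untreated arm and 18950 ± 4791 for the old 3TC arm (SD, n = 6; ranges 4648 to 29340, 16850 to 47910 and 11260 to 25610). With age 14 of 14 of them had a log2 change above 0 (median 1.11), against 79.1% of all genes. Of these markers 13 were higher at an unadjusted p under 0.05, against 20.8% of all genes, and 0 were called, against 0.367%. The 7 markers of lymph node stroma and high endothelium were highest in old untreated male 1 (1660) and then male 6 (1105), and their sum ranged from 350 to 623 among young, from 357 to 1660 among old untreated and from 334 to 697 among old 3TC libraries. Most of that sum was Ccl21a, a chemokine of lymphatic vessels as well whose near-identical gene copies make its count uncertain, at 354 ± 150 in young and 614 ± 399 in old untreated libraries. The means in young and old untreated libraries were 41.6 and 121 for Cxcl13 and 48 and 73.8 for Ccl19. They were 16.9 and 7.59 for Cr2, 16.1 and 0.78 for Chst4, 1.005 and 0 for Glycam1 and 0 and 1.11 for Madcam1. Young untreated females 1 and 3 had transposable-element shares of 5.92% and 12.04% of counts, against 1.54 to 2.51% elsewhere, and without both, which leaves a single young female, an unadjusted p under 0.05 was reached by 11 of 22 members for age (11.8% of all genes) and by 5 of 22 for the difference between the sexes (3.59%). The summed count of 10 liver markers ranged from 3405 to 152000 among young, from 5370 to 38980 among old untreated and from 1406 to 309900 among old 3TC libraries, and was 5370 in old untreated male 1 and 7537 in male 6. The 9 neutrophil markers summed to 35.2 to 106.5 among young and 107.5 to 454 among old untreated libraries without overlap, and were highest in old untreated females 1 (454) and 3 (378), with 154 in male 1 and 196 in male 6; old 3TC libraries ranged from 36.8 to 566. Summed erythrocyte markers averaged 14370 ± 5541, 21940 ± 9756 and 30950 ± 19530 and summed brain markers 1744 ± 2415, 1640 ± 1443 and 652.9 ± 149.9 in the young, old untreated and old 3TC arms (SD, n = 6). The part of these cells and libraries in the age difference was not tested.

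**Figure D4:**
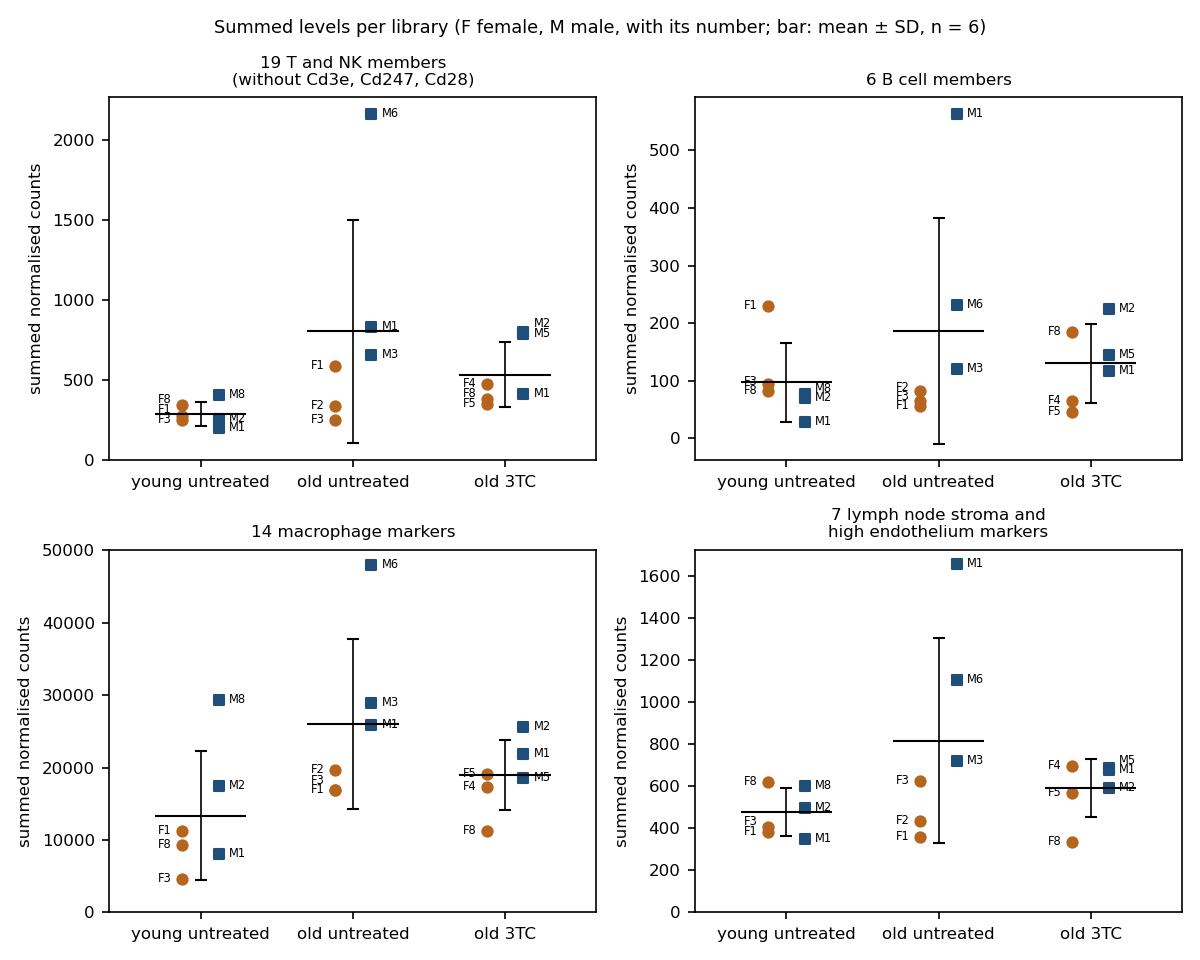
Summed normalised counts per library (vertical axis, linear) by arm (horizontal axis) for 19 T and NK members, 6 B cell members, 14 macrophage markers and 7 markers of lymph node stroma and high endothelium; circles are females and squares males, each with its number, and bars give mean ± SD over 6 libraries. Old untreated male 6 tops the T and NK sum at 2166 and the macrophage sum at 47913, and old untreated male 1 the B cell sum at 564 and the lymph node sum at 1660.

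With 3TC in old mice, none of the markers passed the test. limma called 0 of 22 at an adjusted p under 0.05, as it did for all 16060 genes (0%), and edgeR and DESeq2 called 0 of 22 as well. At an unadjusted p under 0.05 there were 0 of 22 members, against 10.2% of all genes. The log2 change was above 0 for 2 of 22 (Cd3g and Cd22, both below 0 by edgeR and DESeq2) and for 20% of all genes, with a median of −0.31 over the members and −0.15 over all genes. Cd3d, Cd8a and Blk passed the limit of 10 only through the old untreated arm. For them the filter favoured a fall with 3TC, so the count and the median of the members are partly set by it. Under median-of-ratios scaling these medians were −0.19 and −0.01, and Cd3e, Cd79b and Ms4a1 turned above 0 as well. Without old untreated males 1 and 6, chosen for their high values so that leaving them out raises this change, the median of the members was 0.24.

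The lowest p among the members with 3TC was that of Cd3d, at 0, 4.3 and 22.3 counts in females and 0, 12 and 14.6 in males given 3TC (log2 change −1.69 ± 0.89 SE, adjusted p = 0.506, limma). These values lie across the ranges of the young and of the old untreated libraries. For Cd3d, as for Blk, the filter favoured such a fall. Cd4 was 40.4 ± 29.3 with 3TC against 84.3 ± 70.9 without (SD, n = 6; log2 change −0.81 ± 0.51 SE), and Il7r 33.4 ± 15.8 against 47.6 ± 14.5 (−0.57 ± 0.55 SE). Blk was 9.52 ± 6.75 against 18.4 ± 16 (−0.94 ± 0.83 SE). Ccl5 was 72.2 ± 43.6 against 120 ± 146 (−0.27 ± 0.73 SE), and the arm given 3TC held no library as high as old untreated male 6. In females the log2 change with 3TC was above 0 for 14 of 22 members and 21% of all genes (medians 0.11 and −0.19), and in males for 0 of 22 and 32.2% (medians −0.84 and −0.11). An unadjusted p under 0.05 was reached by 0 members in females, in males and for the difference between them, against 8.01%, 3.63% and 2.97% of all genes.

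Against young muscle, the old 3TC arm had higher means for most markers. It shares its libraries with the comparisons above. limma called 0 of 22 members, where 2 of all genes (0.0125%) were called. At an unadjusted p under 0.05 there were 4 higher members, Il7r (log2 1.77 ± 0.55 SE, adjusted p = 0.328), Il2rb (0.81 ± 0.29), Ccl5 (1.97 ± 0.72) and Cd3g (2.29 ± 0.92), against 6.28% of all genes. The log2 change was above 0 for 21 of 22 members and 55.8% of all genes, with Cd28 at −0.33, and the median was 0.79 against 0.03 for all genes. Il7r ranged from 13.8 through a median of 32.4 to 59.0 with 3TC and overlapped the young range through old 3TC male 1 and female 8.

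Other lymphocyte genes were read from lists beside the members, chosen like them with earlier results of these data known. A called gene in them is therefore no independent result. With age, 2 of the 22 tested genes of T cell fate and trafficking were called, against 0.367% of all genes. Spn, the sialoprotein CD43 of leukocytes, went from 46.5 ± 18.9 to 171 ± 88.8 counts (SD, n = 6, with log2 change 1.79 ± 0.31 SE, adjusted p = 0.0294, limma). Sash3, a lymphocyte adaptor, went from 50.8 ± 27 to 147 ± 65.8 (1.54 ± 0.28, adjusted p = 0.0294, limma). In that list 10 genes were higher at an unadjusted p under 0.05 and 0 lower, where 20.8% of all genes were higher. Of 18 tested genes of T cell receptor signalling, 8 were higher at that level, 0 lower and 0 called. Ptprc, the phosphatase CD45 of all leukocytes, had the log2 change 1.31 ± 0.33 (SE, limma). For the T cell receptor chains themselves, the symbols Trac, Trbc1 and Trbc2 had no row among the gene rows.

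Of the cytotoxic and NK effectors, 8 of 23 genes were high enough to be tested; 5 were higher at an unadjusted p under 0.05, again against 20.8% of all genes, and 0 were called, and the smallest p were those of Fcgr3 (1.29 ± 0.29 SE) and Tyrobp (1.16 ± 0.30), an Fc receptor and an adaptor that macrophages also make. Of 23 genes of the B cell receptor and B cell fate, 15 were higher at that level, against the same 20.8%, and 0 called. Jchain, which joins antibodies in plasma cells, was 22.9 ± 18.5 in young and 235 ± 231 in old untreated libraries (SD, n = 6; 3.16 ± 0.72 SE, adjusted p = 0.054, limma), and Btk, a kinase of B and myeloid cells, had the log2 change 0.99 ± 0.24 (adjusted p = 0.06). The immunoglobulin constant genes looked up (Ighm, Ighd, Igha, Igkc, Iglc1 and Iglc2) had no row under those symbols. Among 18 tested signals that draw or keep lymphocytes, 8 were higher at an unadjusted p under 0.05, against 20.8% of all genes. Of the 18, 2 were called, against 0.367% of all genes: the chemokine Ccl8 (26 ± 21.8 to 219 ± 167 counts, log2 change 3.42 ± 0.63, adjusted p = 0.0294, limma) and Tnfsf13b, the B cell survival factor BAFF (21 ± 7.71 to 61.2 ± 27.2, 1.47 ± 0.29, adjusted p = 0.0358, limma). All 6 old untreated libraries lay above all young ones for Spn and Tnfsf13b, which was so for 0.996% of all genes. With 3TC none of these lists held a called gene, and Tnfsf13b had the log2 change −0.86 ± 0.29 (adjusted p = 0.48).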

How the data were processed

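The authors deposited normalised counts, a signal in which each library is scaled to 74.0 M counts; per the submitters' processing notes STAR aligned the reads to mm10, and the counting program, its annotation and its use of strand are not given in the sources used here. Per the labels' protocols, RNA was isolated with a Direct-zol kit and poly(A)-selected. All 18 columns were mapped; the one labelled young untreated female 1 bears the number 2 in its column name. Of 25604 rows, 27 with dates for symbols (0.0628 to 0.0831% of counts) and 1146 transposable-element rows stayed out of the tests.

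limma 3.58.1 (R 4.3.3; lmFit, eBayes with trend) was run on log2(normalised count + 1) of the 16060 genes with a mean of at least 10, with arm and sex as terms (14 residual degrees of freedom) and Benjamini-Hochberg adjustment over all of them. Changes within a sex used the 6 combinations of arm and sex. Reads recovered from the steps of the values (100% whole within 0.001 reads) served edgeR 4.0.16 and DESeq2 1.42.0; in old untreated female 1 and young untreated male 1 the step is near 1 and the recovered and deposited values nearly coincide. Levels per kilobase used merged exons of GENCODE annotation of GRCm38, and sequences came from RefSeq. The fit with arm and sex as terms was also run on simulated counts with planted changes between arms. The fit of the 6 combinations of arm and sex was not. All 28 members are named; of each other list, called genes, otherwise the 2 with the smallest p for age, of which 1 is not reported here. The members and lists were chosen with earlier results of these data known.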

Additional observations from a re-analysis of the deposited data

Results flagged for a closer look

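Zap70, a kinase of the T cell receptor, stood apart in young untreated male 8, at 1 normalised count where the next lowest young library, young untreated male 1, held 25.1. On the scale of log2 of the normalised count plus 1, the gap made up 0.726 of the range of the 6 values. Dixon's limit for 6 samples is 0.625. This was 1 of 66 groups of 6 libraries examined, and chance alone flags about 1 in 20. In the same library Cd3e was 113, Lck 13.7 and Klrk1 73.3. That library is 1 of the 3 young males behind the log2 change of Zap70 with age in males, 2.63 ± 0.81 (SE, limma).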

How the results depend on the processing

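The count of members called with age was 0 as reported and under the other settings run, except by DESeq2, where it was 1 (Il7r), and on leaving out single libraries, where it ran from 0 to 2. It was 2 without young untreated female 8 (Il7r, Ccl5) and 1 without young untreated male 8 or old untreated female 3 (Il7r). In that order, 25.1%, 25.1% and 25% of the tested genes then fell below 0.05 before adjustment. With all libraries 20.8% did so as higher and 1.22% as lower genes. These calls may therefore not be particular to the members. The counts for 3TC and for old 3TC against young were 0 under every alternative run. Replicate numbers did not pair the libraries: the deviations of same-numbered libraries of a sex from their arm's mean had correlations from −0.06 to 0.19 (young untreated female 1 taken by its label, although its column bears the number 2), and with the replicate block 0 members were called with age (47 genes against 59) and the median was 1.13. The median in males was 1.16 with a mean of at least 50 (7 members) and 1.22 without old untreated males 1 and 6; that in females ran from −0.13 to 0.57 without single libraries, highest without old untreated female 3. The count for the difference between the sexes was 2 of 7 with a mean of at least 50 (4.09% of all genes), 0 without old untreated males 1 and 6 (1.96%), and 5 without young untreated females 1 and 3 (3.59%). The median with 3TC turned to 0.24 without old untreated males 1 and 6. Single members with small changes turned sign, all short of the threshold. Under median-of-ratios scaling the log2 change was Cd28 −0.13 with age, and Cd3e 0.12, Cd79b 0.02 and Ms4a1 0.08 with 3TC. By edgeR the log2 change was Cd8b1 −0.16 and Cd28 −0.16 with age, and Cd3e 0.04, Cd3g −0.48, Klrk1 0.00 and Cd22 −0.03 with 3TC. By DESeq2 the log2 change was Cd8b1 −0.27 and Cd28 −0.17 with age, and Cd3e 0.04, Cd3g −0.49, Klrk1 0.00 and Cd22 −0.03 with 3TC. With a pseudocount of 0.5 the log2 change was Ms4a1 0.13 with 3TC. With a pseudocount of 5 the log2 change was Cd3g −0.06 with 3TC. Without old untreated males 1 and 6 the log2 change was Cd8b1 −0.49, Cd28 −0.34, Cd79a −0.04 and Cd79b −0.47 with age, and Cd3e 0.30, Cd8a 0.27, Cd8b1 0.53, Lck 0.48, Zap70 0.21, Cd2 0.32, Cd28 0.02, Ccl5 0.39, Nkg7 0.00, Cd79a 0.28, Cd79b 0.54 and Ms4a1 1.21 with 3TC. Without single libraries the changes with age ran, for those that turned, as Cd8b1 −0.19 to 1.04, Cd28 −0.43 to 0.32 and Cd79b −0.17 to 0.54. Without single libraries the changes with 3TC ran, for those that turned, as Cd3e −0.26 to 0.19, Cd3g −0.52 to 0.72, Cd8a −1.06 to 0.10, Cd8b1 −0.88 to 0.13, Lck −0.59 to 0.14, Zap70 −0.37 to 0.08, Cd2 −0.42 to 0.12, Ccl5 −0.56 to 0.12, Nkg7 −1.07 to 0.03, Klrk1 −0.75 to 0.11, Cd79a −0.46 to 0.06, Cd79b −0.37 to 0.24, Ms4a1 −0.55 to 0.57, Cd22 −0.22 to 0.57 and Il2rb −0.29 to 0.03. The causes were not tested. Depth limits the 6 members near the floor, which held from 10 to 95 reads in each arm of 6 libraries.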

Other observations

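Partners of a receptor or pathway were compared across the 18 libraries on the log2 scale, for 7 pairs chosen after the values had been seen, with two-sided permutation tests (100000 resamples) adjusted over the 7. After removal of each arm's mean, with permutation within arms, Pearson's r was 0.68 for Cd8a with Cd8b1 (permutation adjusted p = 0.0199; Spearman rho = 0.7, adjusted p = 0.0235; r = 0.59 without the 2 farthest libraries). It was 0.68 for Cd79a with Cd79b (permutation adjusted p = 0.0178; rho = 0.59, adjusted p = 0.0559; 0.68 without 2) and 0.45 for Lck with Zap70 (permutation adjusted p = 0.0178; rho = 0.53, adjusted p = 0.0649; 0.42 without 2). The age changes were uneven between the sexes, a difference that passed the adjusted threshold for 0 members. After removal of the mean of each arm and sex, with permutation within both, none of the 7 pairs passed. There r was 0.51 for Cd8a with Cd8b1 (rho 0.55), 0.45 for Cd79a with Cd79b (rho 0.45) and 0.29 for Lck with Zap70 (rho 0.27), with permutation adjusted p = 0.267, 0.269 and 0.274 for r and 0.217, 0.24 and 0.474 for rho. The CD3 chains did not pass either way: with arm means removed r was 0.26 for Cd3d with Cd3g (rho 0.35), 0.34 for Cd3g with Cd3e (rho 0.27) and 0.07 for Cd3d with Cd3e (rho 0.04; −0.19 without 2), with permutation adjusted p = 0.285, 0.285 and 0.792. Cd247 with its antisense neighbour Pou2f1 gave r = 0.41 (permutation adjusted p = 0.255; rho = 0.51; 0.66 without 2) and, within sex, r = 0.49 (permutation adjusted p = 0.267; rho = 0.59). These points share the scaling and the libraries that stood high.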
